A study of Drosophila melanogaster with 2 samples.

Results

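The genes described here encode the translation initiation, elongation and release factors of Drosophila melanogaster. They are the 54 Ensembl protein-coding genes whose symbol begins with eIF, eEF or eRF, out of 13968 protein-coding genes on the main chromosomes. Of the 54, 44 carry an eIF symbol, 8 an eEF symbol and 2 an eRF symbol. The binding of CG10462 to chromatin was measured by chromatin immunoprecipitation and sequencing (ChIP-seq). The material was whole embryos aged 0 to 24 hours, with both sexes pooled, from a transgenic fly line that makes CG10462 with green fluorescent protein (GFP) fused to its C terminus. An antibody against GFP brought down the bound DNA, which had been sheared by sonication to 200 to 800 bp. There is 1 group with 2 biological replicates, numbered 2 and 3, and each has its own extraction document. The sources used here do not give the function of CG10462 or the promoter of the transgene. A control without the tagged protein was not analysed here, so no value below has a background measured in the same way. Whole embryos were used, so occupancy in few cells and weak occupancy in many cells cannot be told apart.

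A gene was called occupied where a summit, the highest point of a peak, of the combined reproducible list lay within 500 bp of one of its annotated transcript starts. That list, called the optimal list, holds 2993 peaks that passed the irreproducible discovery rate (IDR) comparison of the replicates. Longer relaxed lists, deposited as peaks together with background, hold 30000 entries each for the pooled reads, for replicate 2 and for replicate 3. Ranks run from the strongest entry of a list by the authors' signal value, and the optimal peaks were the 2993 strongest pooled entries. The lowest signal was 62.2 in the optimal list, 15.5 in the pooled list, 9.61 in replicate 2 and 8.53 in replicate 3. The scaling of the signal is not given in the sources used here, so signals were compared within a list and never across lists. Read depth is not recorded in these lists. With 1 group and 2 replicates no test was made, and genes and peaks are not replicates.

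Translation factors act on the ribosome in sequence. Initiation factors bring the initiator tRNA and the small ribosomal subunit to the capped end of an mRNA, scan to the start codon and release themselves as the large subunit joins. Elongation factors then deliver each aminoacyl-tRNA and move the ribosome along the message, and release factors end synthesis at a stop codon. Most of these proteins are needed in every growing cell, and the early fly embryo begins with maternal stores of them. Promoters of broadly expressed fly genes often hold the DNA replication-related element (DRE), TATCGATA. Promoters of ribosomal protein and some translation factor genes can hold the TCT initiator, a pyrimidine stretch at the start site.

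The 11 occupied genes carried 12 optimal summits. The sequence from 50 bp before to 50 bp after the summit is shown for 5 of them, because these windows hold the sequence features counted below. All are from the Release 6 genome (dm6) and are written 5′ to 3′ on the strand of the translation factor gene. In the first, at chr3R:24109124-24109224 on the minus strand, capitals mark a run of A and T that is the longest in any of the 12 windows.
eIF4EHP: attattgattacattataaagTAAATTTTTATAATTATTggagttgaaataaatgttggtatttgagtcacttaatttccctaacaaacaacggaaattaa
In the other 4, capitals mark ATCGAT, the core of the DRE. They lie at chr3R:29220082-29220182 (plus strand), chr3L:3222967-3223067 (plus strand), chr3L:9402433-9402533 (minus strand) and chr2L:12434367-12434467 (plus strand).
eEF1gamma: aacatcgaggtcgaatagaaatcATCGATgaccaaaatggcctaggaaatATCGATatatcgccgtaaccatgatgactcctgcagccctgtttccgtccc
eIF1: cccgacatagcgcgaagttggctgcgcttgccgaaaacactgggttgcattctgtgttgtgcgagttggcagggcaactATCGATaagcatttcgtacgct
eIF4E1: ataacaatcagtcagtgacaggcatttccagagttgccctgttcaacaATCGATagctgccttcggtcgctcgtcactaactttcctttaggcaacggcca
eRF3: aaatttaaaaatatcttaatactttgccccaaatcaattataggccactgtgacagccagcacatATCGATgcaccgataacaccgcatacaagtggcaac

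CG10462 occupied 11 of the 54 translation factor genes, or 20.4%, against 14.7% of all protein-coding genes. The occupied genes were eIF6, eIF4EHP, eEF1gamma, eIF3h, eIF3c, eIF1, eIF4E1, eIF5B, eEF2, eIF3k and eRF3. The share was a few genes above that of all genes and was not tested. Of the cytosolic ribosomal protein genes 42 of 92 (45.7%) were occupied. Of the 33 aminoacyl-tRNA synthetase genes, 6 (18.2%) were occupied. The translation factor genes also reached further into the relaxed lists. A pooled entry lay at 37 members (68.5%), against 50.8% of all protein-coding genes. A replicate 2 entry lay at 35 members (64.8%), against 53.1% of all genes, and a replicate 3 entry at 31 members (57.4%), against 44.3% of all genes.

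**Figure D1:**
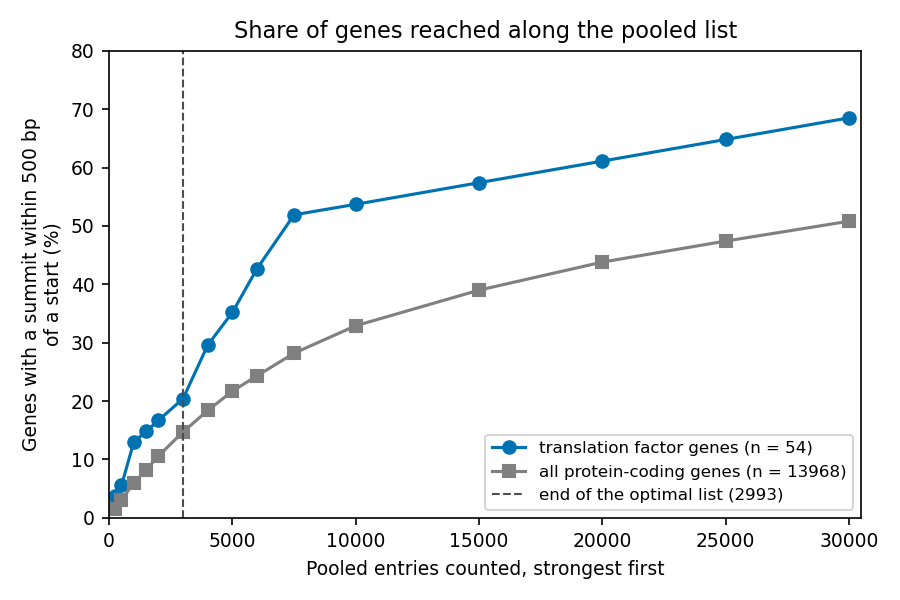
Share of genes (y axis, percent) with a summit within 500 bp of a start when the pooled entries are counted from the strongest down (x axis), for the 54 translation factor genes and all 13968 protein-coding genes. The translation factor share was the higher of the 2 at each limit plotted, and between rank 2993 and rank 5986 it climbed to 42.6%, against 24.3% of all genes.

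Many translation factor genes had their best entry below the end of the optimal list, from 31 (eEF1alpha1) to 2897 places (eIF2A) past it. Between ranks 2994 and 5986 of the pooled list lay the best entry of 12 members, or 22.2%, against 9.66% of all protein-coding genes. They were eEF1alpha1, eIF4A, eIF2beta, eIF3m, eIF2D, eIF3i, eIF5, eRF1, eEF5, eIF4G2, eIF3d1 and eIF2A. Counting them would bring the members to 23 of 54. The last member inside the list was eRF3, at rank 2992 of 2993, and the first outside it was eEF1alpha1, at rank 3024. Among members with a pooled entry the median rank was 4741, against 6390 for all protein-coding genes with one. Within the optimal list the occupied members had a median rank of 673, against 1302 for all occupied genes. Among the 1496 strongest optimal peaks were those of 8 of the 11, against 55.7% of occupied genes.

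**Figure D2:**
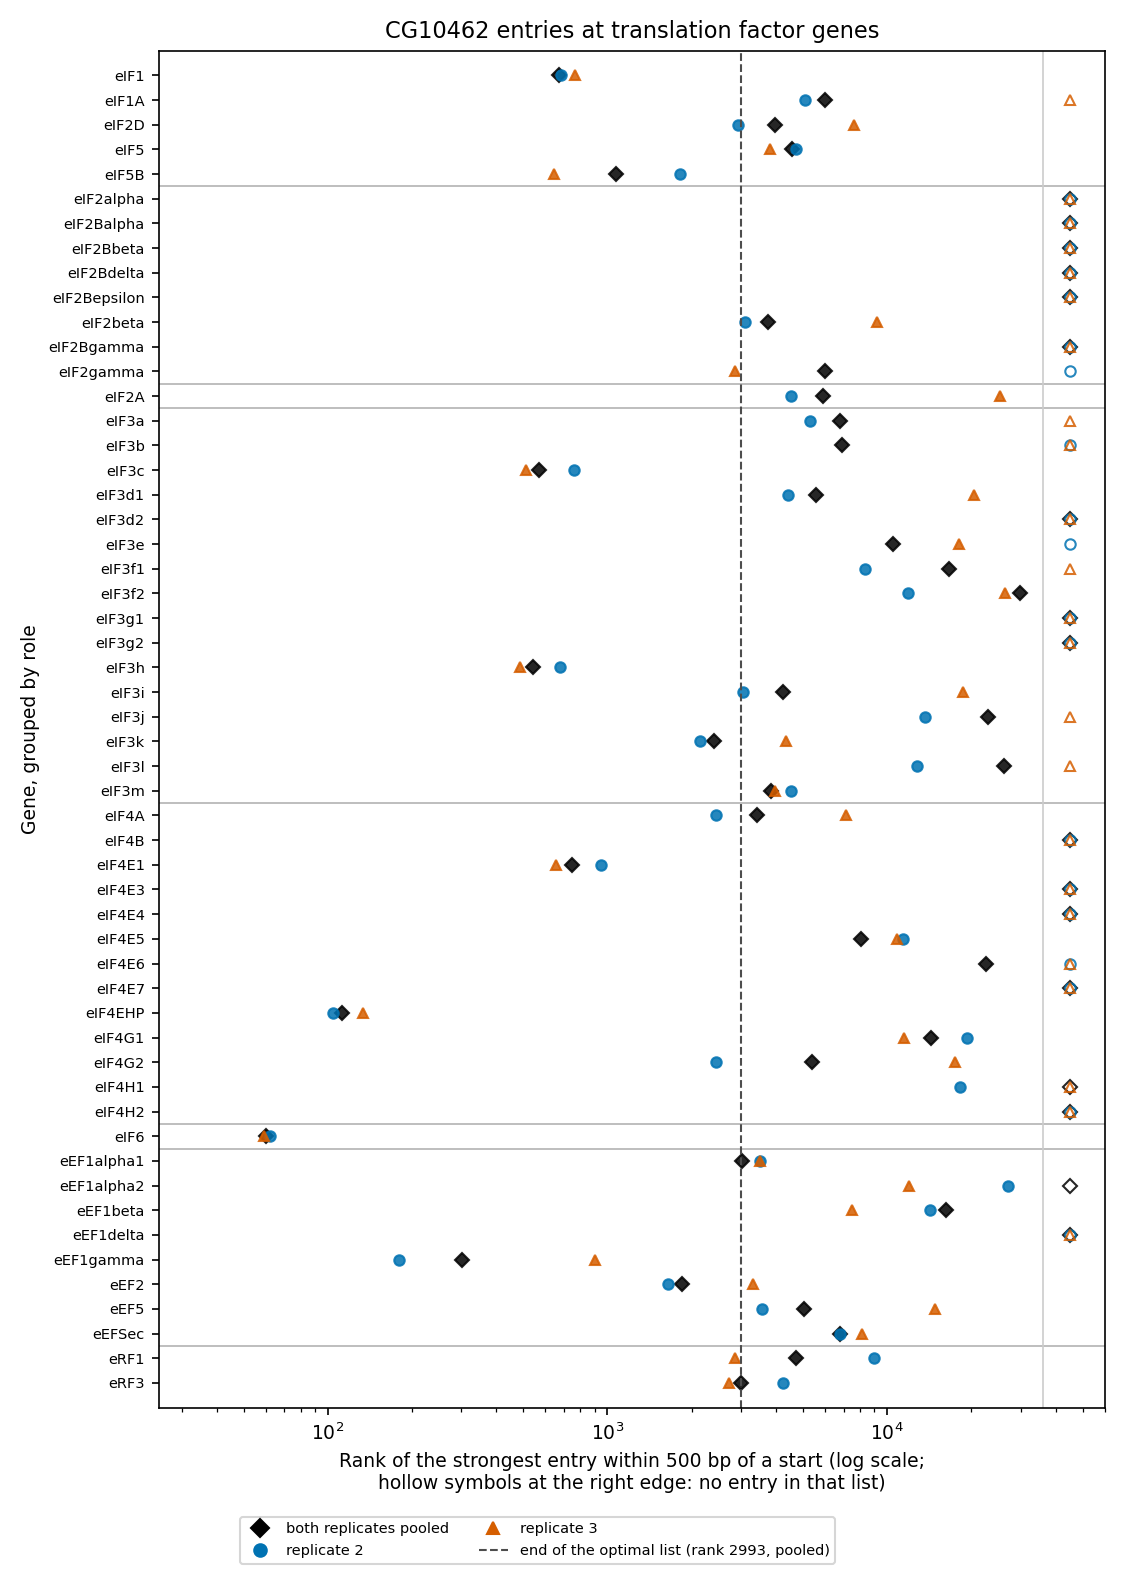
Rank of the strongest entry within 500 bp of a start (x axis, log scale, 1 is strongest) for each of the 54 genes (rows, grouped by role), in the pooled list, replicate 2 and replicate 3. Hollow symbols at the right edge mark lists with no entry, and the dashed line is the end of the optimal list at rank 2993. The symbols of eIF6 and eIF4EHP lie furthest left, and the 5 eIF2B genes have hollow symbols in all 3 lists.

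The strongest entry at a translation factor gene was that of eIF6. The protein, as known from yeast and mammals, binds the large ribosomal subunit, keeps it from joining the small one too early and takes part in making it. Its summit at chr2R:23850393 ranked 62 in replicate 2 and 59 in replicate 3, with signals of 221 and 159, and 60 in the pooled list. It lay 92 bp upstream of the eIF6 start, outside the gene. The start of the antisense noncoding RNA asRNA:CR45928 on the other strand was nearer, at 63 bp. The assignment to eIF6 therefore rests on the distance rule and not on the nearest start.

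A group of 5 genes was set up by symbol for start codon selection and recruitment of the small subunit. It also holds eIF5B, which acts later in initiation. In this group eIF1 and eIF5B were occupied, and all 5 had a pooled entry. The protein eIF1 guards against initiation at the wrong codon. Its summit at chr3L:3223017 ranked 680 in replicate 2 and 763 in replicate 3, with signals of 90 and 54.5. The summits of the replicates lay 1 bp apart. They were 324 bp upstream of the eIF1 start but 57 bp upstream of RpL28, a large-subunit ribosomal protein gene that runs the other way. The small nucleolar RNA gene snoRNA:Or-CD11a began 476 bp from the same summit. The occupancy of eIF1 and RpL28 is thus 1 peak counted at both genes.

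The GTPase eIF5B joins the subunits at the end of initiation. Its summit at chr3L:3460747 ranked 1817 in replicate 2 and 646 in replicate 3, with signals of 53.8 and 59.6. It lay within the gene, in an untranslated exon part, 144 bp upstream of the nearer of its 2 starts. The other members of this group were not occupied. The best pooled rank was 3957 for eIF2D, whose mammalian counterpart can place tRNA on the ribosome without eIF2, and 4572 for eIF5, which drives GTP hydrolysis by eIF2. For eIF1A, a partner of eIF1 in scanning, it was 6011, and replicate 3 had no entry there. The gene eIF5 shares a transcript start with CG46312.

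Of the 8 genes of eIF2 and eIF2B 0 were occupied, against 14.7% of all protein-coding genes. All but eIF2Bdelta and eIF2gamma have 1 annotated start, and of all genes with 1 start 11.5% were occupied. With so few genes this count is near the background and was not tested. The heterotrimer eIF2 carries the initiator tRNA, and the 5-subunit eIF2B recharges it with GTP, the step that stress kinases block. All 5 eIF2B genes and eIF2alpha had no entry within 500 bp in any of the 4 lists. Of all protein-coding genes 38.5% had an entry in neither replicate list. The gene eIF2beta had a pooled rank of 3747, with ranks of 3092 in replicate 2 and 9191 in replicate 3. The gene eIF2gamma shares a transcript start with the histone methyltransferase gene Su(var)3-9, so the genes cannot be told apart here. It ranked 6015 in the pooled list and 2855 in replicate 3, and had no entry in replicate 2.

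The eIF3 complex, a scaffold on the small subunit, had 3 occupied genes among 16, and 13 of the 16 had a pooled entry. The occupied genes were eIF3h, eIF3c and eIF3k. The gene eIF3c encodes a core subunit. Its summit at chr2R:17665635 ranked 762 in replicate 2 and 513 in replicate 3, with signals of 85 and 66.4, and lay 43 bp upstream of the start. The gene eIF3k encodes a subunit that some eukaryotes lack. Its summit at chr2R:21685203, 80 bp upstream, ranked 2148 in replicate 2 and 4361 in replicate 3, with signals of 48.8 and 19.7. In replicate 3 it thus fell outside the 2993 strongest entries.

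The gene eIF3h was the one member with 2 optimal summits near its start. The stronger, at chr2L:5052484, ranked 675 in replicate 2 and 487 in replicate 3, with signals of 90.1 and 67.7. It lay 296 bp downstream of the start, in an intron. The weaker, at chr2L:5052722, ranked 2499 in the optimal list and lay 58 bp downstream, in a coding exon. The gene senju began on the other strand 63 bp from the nearest eIF3h start, and both summits were also within 500 bp of it, at 359 and 121 bp. The eIF3h start was the nearer one for both summits.

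Paralogous eIF3 genes differed in their entries. The pooled entry of eIF3d1 ranked 5575, while eIF3d2 had none in any list. The pooled entry of eIF3f1 ranked 16657 and that of eIF3f2 ranked 29938, while eIF3g1 and eIF3g2 had none in any list. The remaining subunits ranked 3845 (eIF3m), 4254 (eIF3i), 6775 (eIF3a), 6882 (eIF3b), 10466 (eIF3e), 22985 (eIF3j) and 26266 (eIF3l) in the pooled list. The entry of eIF3b was absent from both replicate lists, and that of eIF3i ranked 3045 in replicate 2 against 18706 in replicate 3.

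Among the 13 cap-binding and scanning genes, eIF4EHP and eIF4E1 were occupied. The protein eIF4E1 is the main cap-binding initiation factor. In the fly embryo eIF4EHP binds caps without recruiting the initiation machinery and keeps caudal and hunchback mRNA silent. The eIF4EHP summit at chr3R:24109174 ranked 104 in replicate 2 and 134 in replicate 3, with signals of 195 and 117. It lay 214 bp upstream of eIF4EHP and 162 bp upstream of CG18428, which runs the other way. The eIF4E1 summit at chr3L:9402483 ranked 948 in replicate 2 and 656 in replicate 3, with signals of 76 and 59. It lay 23 bp upstream of the nearest of 4 starts, with no other gene start within 500 bp.

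The other eIF4E genes were not occupied. Pooled entries ranked 8087 at eIF4E5 and 22615 at eIF4E6, and eIF4E3, eIF4E4 and eIF4E7 had no entry in any list. The helicase gene eIF4A, whose protein unwinds leader structure, ranked 3422 in the pooled list, 2438 in replicate 2 and 7112 in replicate 3. The scaffold gene eIF4G2 ranked 5398 in the pooled list, 2435 in replicate 2 and 17485 in replicate 3, and shares a start with CG33111. Its paralog eIF4G1, the one member on chromosome 4, ranked 14393 in the pooled list. The helicase cofactor genes eIF4B and eIF4H2 had no entry in any list, and eIF4H1 had a replicate 2 entry at rank 18162. Outside these role groups, eIF2A had a pooled rank of 5890, with ranks of 4521 in replicate 2 and 25234 in replicate 3.

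Among the 8 elongation genes, eEF1gamma and eEF2 were occupied. The protein eEF1gamma is a structural subunit of the complex that recharges eEF1alpha with GTP. Its summit at chr3R:29220132, 40 bp upstream of the start, ranked 180 in replicate 2 and 906 in replicate 3, with signals of 160 and 49.5. The protein eEF2 is the GTPase that moves the ribosome by a codon. Its summit at chr2L:21682107, 9 bp downstream of a start in an untranslated exon part, ranked 1648 in replicate 2 and 3314 in replicate 3, with signals of 56.8 and 22.9. No other gene start lay within 500 bp of either summit. Both genes ranked higher in replicate 2 than in replicate 3.

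Of the other eEF1 genes, eEF1alpha1, which encodes the main carrier of aminoacyl-tRNA, came closest to the optimal list. It ranked 3024 in the pooled list, 3517 in replicate 2 and 3519 in replicate 3, 31 places past the end of the optimal list. The strongest entries of the replicates there were at different places, 1038 bp apart. The pooled rank of eEF1beta was 16188. The paralog eEF1alpha2 had entries in the replicate lists alone, at ranks 27084 in replicate 2 and 11998 in replicate 3, and eEF1delta had none in any list. The gene eEF5, whose yeast counterpart helps the ribosome through difficult peptide bonds, ranked 5043 in the pooled list, and the selenocysteine factor gene eEFSec ranked 6798.

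Of the release factor genes, eRF3 was occupied and eRF1 was not. The protein eRF1 reads the stop codon and eRF3 is its GTPase partner. The eRF3 summit at chr2L:12434417, 35 bp upstream, ranked 4248 in replicate 2 and 2720 in replicate 3, with signals of 32.4 and 26. The splicing factor gene SC35 began 248 bp from it. The pooled entry of eRF1 ranked 4741, with ranks of 8951 in replicate 2 and 2860 in replicate 3, so in replicate 3 alone the 2 genes had nearly the same rank.

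The optimal list holds peaks that passed the comparison of these same replicates, so for occupied genes entries in both lists and nearby summits largely follow from the rule. All 11 had an entry in both replicate lists, as did 98.7% of occupied protein-coding genes, and 8 were among the 2993 strongest entries of both. The summits of the replicates lay 1 to 46 bp apart with a median of 24 bp, against 34 bp over all occupied genes. For the 18 unoccupied members with an entry in both lists the median gap was 156 bp, against 114.5 bp over the 2998 unoccupied protein-coding genes with an entry in both. Across members, 29 (53.7%) had an entry in both replicates, against 35.9% of all protein-coding genes. Another 6 members (11.1%) had one in replicate 2 alone, against 17.2% of all genes, and 2 (3.7%) in replicate 3 alone, against 8.33%. The remaining 17 (31.5%) had one in neither, against 38.5% of all genes. Among the 2993 strongest entries of replicate 2 were those of 13 members (24.1%), against 14.7% of all genes. Among those of replicate 3 were 11 members (20.4%), against 13.9% of all genes. The replicate 2 list lacked eRF3 and held eIF2D, eIF4A and eIF4G2, while the replicate 3 list lacked eEF2 and eIF3k and held eIF2gamma and eRF1.

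**Figure D3:**
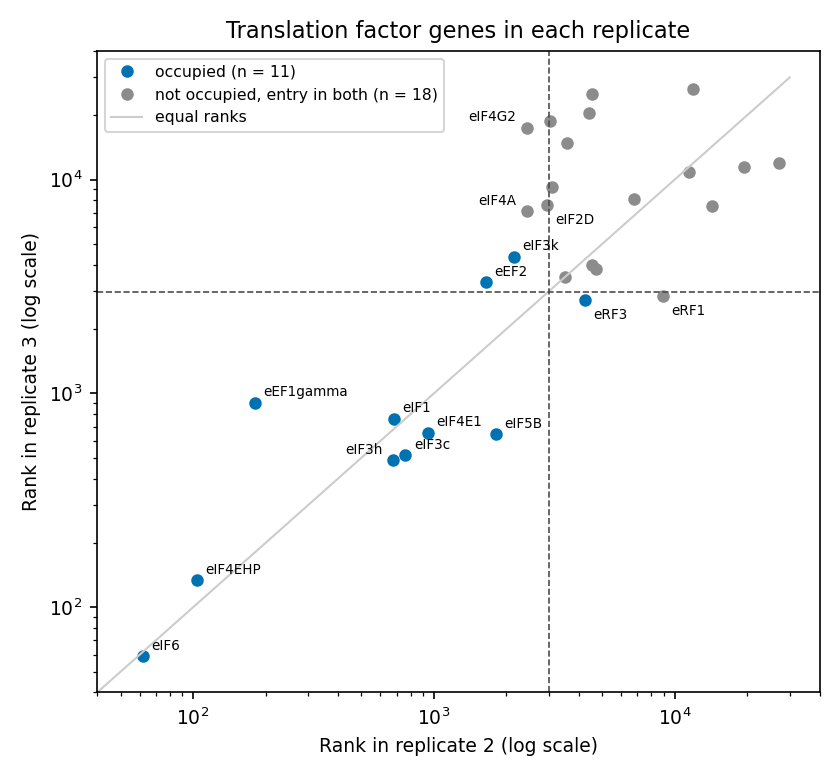
Rank of the strongest entry within 500 bp of a start in replicate 2 (x axis) and replicate 3 (y axis), both on log scales, for the 29 translation factor genes with an entry in both. Dashed lines mark rank 2993 in each list; 8 of the 11 occupied genes lie below and left of both, with eIF6 and eIF4EHP the strongest in both replicates.

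The distance of a summit was taken to the nearest of a gene's annotated starts. The median was 43 bp upstream, against 146 bp upstream over all occupied protein-coding genes. The strongest summit was within 100 bp of a start at 7 of 11 members, against 27.3% of occupied genes, and upstream at 9 of 11, against 90.7%. Of the 11, 7 had 2 or more starts, and their summits lay 9 bp (eEF2) to 296 bp (eIF3h) from the nearest one. The 4 with 1 start had summits 324 bp (eIF1), 214 bp (eIF4EHP), 92 bp (eIF6) and 80 bp (eIF3k) upstream. The distances were not adjusted for the number of starts. In the 2993 strongest entries of each replicate alone the medians were further out and nearer to the background. They were 74 bp upstream against 141 bp for all genes in replicate 2, and 107 bp against 153 bp in replicate 3. Another gene started within 500 bp of the strongest summit at 5 of 11 members, against 64.5% of occupied genes. These were eIF6, eIF4EHP, eIF3h, eIF1 and eRF3, and at eIF6, eIF4EHP and eIF1 the neighbour was the nearer gene. With each summit given to its nearest start alone, 8 of 54 members were occupied, 14.8% against 10.3% of all genes.

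The number of annotated starts went with occupancy. Of the members 22 had 2 or more starts and 32 had 1, while 26.5% of all protein-coding genes had 2 or more. Of the 22, 7 were occupied (31.8%), against 23.4% of all genes with 2 or more starts. Of the 32, 4 were occupied (12.5%), against 11.5% of all genes with 1 start. Occupied members lay on 2L, 2R, 3L and 3R. On X 0 of 7 members were occupied, against 12.5% of X genes.

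**Figure D4:**
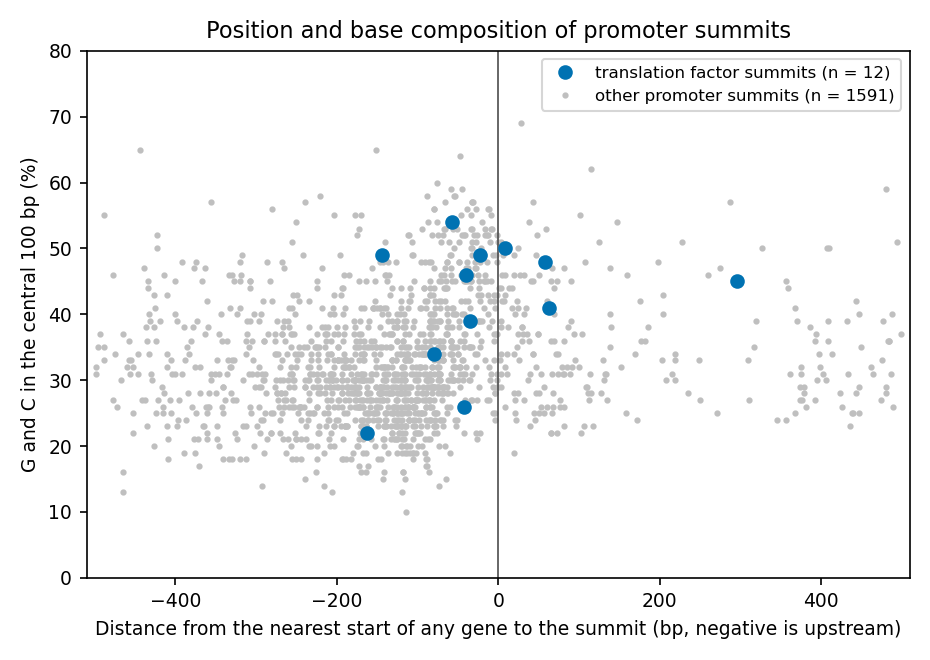
G and C content of the central 100 bp (y axis, percent) and distance from the nearest start of any gene (x axis, bp, negative is upstream) for the 12 translation factor summits and the other 1591 optimal summits within 500 bp of a start. Most promoter summits gather at low G and C content upstream of the start, and 7 of the 12 translation factor summits lie at 45% or above.

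Most promoter summits of CG10462 sat on A- and T-rich DNA, and those at translation factor genes were richer in G and C. The central 100 bp had a median of 45.5% G and C over the 12 member summits, against 31% over all 1603 promoter summits. In the flanks, 400 bp to the left and right, the medians were 49% and 44.5% for members, against 46% on both sides for all promoter summits. The centre was lower than both flanks at 5 of 12 member summits (41.7%), against 68.7% of all. The spread among members was wide. The summit of eIF4EHP had 22% G and C, with an A/T run of 18 bases, and that of eIF3c had 26%, while that of eIF1 had 54% and that of eEF2 50%. The longest A/T run within 101 bp had a median of 7 bases at member summits, against 11 at all promoter summits.

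Base composition went with position. A centre of 45% or more, a limit set after the values were seen, was found at 7 of 12 member summits, against 13.8% of promoter summits. Promoter summits past that limit lay a median of 66 bp from the nearest start, against 135 bp for all promoter summits. The 43 summits at ribosomal protein genes had a median of 44% G and C, and the occupied ribosomal protein genes had their summits a median of 66 bp upstream. The member median was thus close to that of the ribosomal protein summits, and summits of high G and C content tended to lie nearer to starts. The 2 sets overlap, because the eIF1 summit is also that of RpL28. The gene eIF3h gave 2 of the 12 member summits. In replicate 3 alone the member summits had a median of 44%, against 32% for all promoter summits, and in replicate 2 alone 45%, against 32%.

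**Figure D5:**
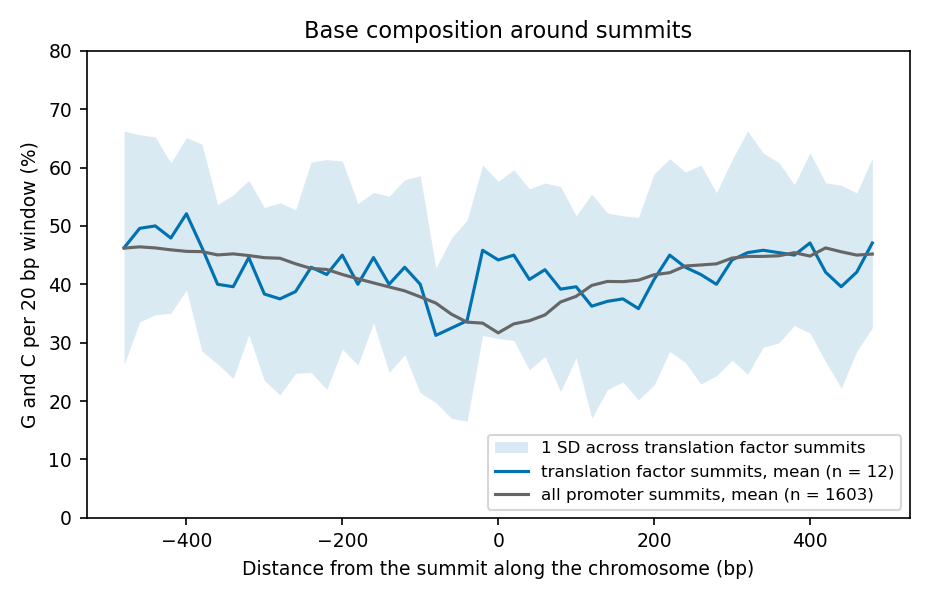
Mean G and C content per 20 bp window (y axis, percent) by distance from the summit along the chromosome (x axis, bp) for the 12 translation factor summits, with a band of 1 SD across them, and for all 1603 promoter summits. The mean over all promoter summits dips at the summit, whereas the translation factor mean dips to its left and is wide in spread throughout.

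A- and T-rich DNA also lay near the starts of unoccupied members. The lowest G and C content of any 100 bp near a start had a median of 19% at occupied members, 20% at members with an entry that were not occupied, and 26% at the 15 members with no entry in any list. Over all protein-coding genes it was 22%. A gene with more starts has more sequence in which a low value can be found. Of the 11 occupied members 7 had 2 or more starts, while among the 15 only eIF2Bdelta did. The medians were not adjusted for the number of starts.

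Promoters were taken as the 250 bp before to 50 bp after each start, and a gene counted where any of its starts held the word. Genes with more starts were thus searched over more sequence. Of the 54 members 22 had 2 or more starts, against 26.5% of all genes, and the shares were not adjusted for this. TATCGATA (both strands) was found at 16 of 54 members (29.6%), against 10.2% of all protein-coding genes. Of the occupied members it was at eEF1gamma, eIF3c and eIF6, or 27.3%, against 15.4% of occupied genes. Its core ATCGAT, which lies within TATCGATA, was searched after the summit sequences had been read. It was found at 28 members (51.9%), against 26.3% of all genes, and at 8 of the 11 occupied members (72.7%), against 34% of occupied genes. Within 50 bp of a summit ATCGAT was found at 4 of 12 member summits, those of eEF1gamma, eIF1, eIF4E1 and eRF3 printed above, against 5.99% of all promoter summits. TATCGATA was at 2 of the 12, eEF1gamma and eIF1, against 2.56% of all.

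Among the other words, CAGCTG (both strands) was found at 6 of 54 member promoters (11.1%), a lower share than the 22.3% of all genes. TATAAA (gene strand) was found at 19 (35.2%), against 37% of all genes. GGTCACACT (both strands) was found at 4 (7.41%), against 6.77%, and CACGTG (both strands) at 5 (9.26%), against 5.29%. Shares of TATAAA and GGTCACACT were thus close to those of all genes. The word matches describe letters in these windows and are not binding sites.

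For the TCT initiator, the gene strand was searched for the word TCTTTT, the word TCTTTC, the word CCTTTT or the word CCTTTC. Such a word lay within 10 bp of a start at 7 members (13%), against 3.03% of all protein-coding genes. Of these eEF2 was occupied, and eEF1delta, eEF5, eIF3f1, eIF3i, eIF3m and eIF4A were not. The share among occupied genes was 1 of 11 members (9.09%), against 4.93%. These are matches near a start and do not show an initiator at the start itself. The word began 3 bp downstream of the annotated start at eEF2, eIF3f1 and eIF4A, and 4 bp downstream at eIF3i. At eEF1delta it began 10 bp upstream and ended before the start. The word position at eEF5 and eIF3m is not given here. The starts, with 10 bp on either side and the word in capitals, are shown for 5 of the 7 to let the words be read against the annotated start, which is the base in the middle. They lie at chr2L:21682106-21682126 (minus strand), chr3R:4714172-4714192 (minus strand), chr2L:4967765-4967785 (minus strand), chr2L:5981754-5981774 (plus strand) and chr2L:10232497-10232517 (plus strand) in dm6.
eEF2: tgcagcgcctcgcTCTTTCct
eIF3f1: actatcgataggcCCTTTTct
eIF3i: cacggtcacactgcTCTTTTg
eIF4A: gcaagatggagccTCTTTTgc
eEF1delta: CCTTTCaaacgtgttatcgta

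A list of 44 names of further genes of translation and its control was looked up beside the members, and 42 of the names matched. The names without a match were Tor, which was thus not looked up, and Hbs1, a second spelling of HBS1, which matched. Of the 42 matched genes 9 were occupied (21.4%), against 14.7% of all genes, at 8 distinct peaks. A pooled entry lay at 35 of them (83.3%), against 50.8% of all genes. The RNA-binding protein gene larp had the strongest, at optimal rank 40, and Rheb, the GTPase that activates TOR kinase, ranked 414. The P-body component gene tral, a partner in mRNA repression, ranked 442. Dph1, whose yeast counterpart helps make the diphthamide residue of eEF2, ranked 1357. The phosphatase gene mts and the ribosome scaffold gene Rack1 shared 1 summit at rank 1491, 339 bp upstream of mts and 4 bp downstream of Rack1. The gene Thor, which encodes the inhibitor 4E-BP of eIF4E, ranked 1714, with ranks of 1084 in replicate 2 and 5143 in replicate 3. The ribosome recycling gene pix ranked 2502 and the translational repressor gene Fmr1 ranked 2974. The control genes thus lay on both sides of the members' median rank of 673.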

How the data were processed

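Per the labels and the names of the deposited tables, peak lists were made from replicate 2, replicate 3 and both pooled, and the optimal list came from an IDR comparison. Neither the aligner nor the peak caller is named in the sources used here. The authors deposited a signal value for each entry, which served to rank entries within a list. Lists in dm6 coordinates were used, and those in dm3 were not.

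Summits were set beside 24111 transcript starts of Ensembl release 115. The 54 member genes had the same start and end in RefSeq Release 6. Python 3.11.15, numpy 2.4.6 and matplotlib 3.10.9 were used. The call of a gene by a summit within 500 bp was tested on simulated summits placed around real starts. The nearest-start call was tested only for false calls, and signed distances and peak overlap were not tested in this way. No filter on signal and no pseudocount was applied.

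Members, role groups, further gene list and words were chosen with earlier results of these data known. Named genes were all occupied members, the 10 unoccupied members with the strongest pooled entry, paralogs and fellow subunits of occupied members, and occupied genes of the further list. The remaining members were named to account for all 54. Alternatives were other distances (200 and 1000 bp), protein-coding starts alone, nearest start, peak overlap by at least 1 bp, shorter and longer lists, other G and C windows, and each replicate alone.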

Additional observations from a re-analysis of the deposited data

How the results depend on the processing

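The count of 11 occupied translation factor genes was 8 to 13 under each alternative but the list of 5986 pooled entries, which gave 23 (42.6%, against 24.3% of all genes), with all 11 kept. It was 9 at 200 bp (16.7%, against 9.94%) and 9 by peak overlap (16.7%, against 9.48%), in both cases without eIF1 and eIF4EHP. It was 12 at 1000 bp, where eIF2Bbeta was added and 16.7% of all genes were occupied. It was 8 by nearest start (14.8%, against 10.3%), without eIF1, eIF4EHP and eIF6, and 8 in the 1496 strongest peaks (14.8%, against 8.17%), without eEF2, eIF3k and eRF3. Leaving out each replicate gave 11 to 13 genes, or 20.4% to 24.1%, against 13.9% to 14.7% of all genes. The median signed distance of -43 bp became -67.5 bp in the 1496 strongest peaks and ranged over -107 to -74 bp without one replicate. The median G and C content of 45.5% became 47% over 50 bp and 41% over 200 bp, and was 44% to 45% without one replicate, an alternative added after the data were seen. The cause of these moves was not tested. No paired analysis was possible because there is 1 group. The lists give no read depth, so the precision of a single entry is unknown.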
